A study of Mus musculus with 4 samples.

Results

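Peaks of N6-methyladenosine (m6A) that the authors assigned to 3′ UTRs are described here, in mouse macrophages with and without a myeloid deletion of Mettl3. They are the rows with the region name UTR3 in the cKO peak list, the WT peak list and the table of differential peaks. These rows numbered 48750 of 85559 over the 3 tables. The cKO list held 21551 of them among 38697 peaks (55.7%, exact 95% interval 55.2 to 56.2). The WT list held 20515 among 36507 peaks (56.2%, 55.7 to 56.7). The table of differential peaks held 6684 among 10355. Intervals on shares are Clopper-Pearson intervals, those on medians are exact intervals on ranks, and both cover counting error only.

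The macrophages were grown from C57BL/6 bone marrow with M-CSF, the growth factor of the macrophage lineage, for 7 days and then kept for 24 h together with the mouse colon carcinoma line MC38. The cKO cells carried floxed Mettl3 alleles (Mettl3fl/fl) and LysM-cre, with Cre under the promoter of the lysozyme M gene. This promoter works in cells of the myeloid lineage, and the deletion can miss some cells. The WT cells carried the same Mettl3fl/fl alleles without Cre, so both genotypes were floxed and both met tumour cells. Each genotype had 1 library of antibody-bound RNA (IP) and 1 library of the RNA that entered the immunoprecipitation (input). There were no replicates, so every difference compares single libraries, and read depth is unknown. Peak strength is the log2 of IP over input as the authors deposited it. Because the scaling between IP and input libraries is not given in the sources used here, a loss of m6A spread evenly over all transcripts would not have to show, and a rise in this ratio is not by itself a gain of m6A.

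Most m6A in messenger RNA is written by the METTL3-METTL14 methyltransferase, which prefers the sequence context DRACH, with GGACT as its most favoured form. In mammalian transcripts the mark gathers near the stop codon and along the 3′ UTR. The 3′ UTR also carries the signals that set mRNA life span and translation, among them microRNA sites, AU-rich elements and, close to its end, the polyadenylation signal AATAAA. Reader proteins of the YTHDF family bind the mark there, and YTHDF2 recruits the machinery that removes the poly(A) tail.

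Sequence elements inside the 3′ UTR peaks with the smallest adjusted p-values in the authors' deposited table show what lies under them. Only genes with a mean input of at least 5 FPKM entered. The first set comes from peaks lower in the cKO. It gives the first GGACT match after the stop codon within the peak, in capitals with 10 flanking bases on each side. Matches in the coding sequence were left out. Sequences are from GENCODE M21 transcripts on GRCm38 (mm10), read 5′ to 3′ on the transcript strand.
Clec4e, chr6:123283419-123283443, minus strand: ggcatcagaaGGACTgcacatgtat
Ctsb, chr14:63142673-63142697, plus strand: tttgactgcaGGACTtccaaaagaa
Tnfrsf1b, chr4:145215045-145215069, minus strand: ggaatctcagGGACTgtagagttcc
Rbpj, chr5:53653628-53653652, plus strand: ctttttgctgGGACTgaaactgact
Vsir, chr10:60369391-60369415, plus strand: ctcctctgttGGACTgactctatcc
Sdc1, chr12:8792562-8792586, plus strand: aacagggtatGGACTatctgtatgg
In Rbpj the match began 17 bases after the stop codon, in Clec4e 106 bases, in Ctsb 353 bases, in Vsir 461 bases, in Tnfrsf1b 727 bases and in Sdc1 764 bases after it. The distance from the match to the end of the transcript was at least 1144 bases in each of these 6 transcripts. The peaks of Btg1 and Acod1 held no match within the 3′ UTR.

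The second set comes from peaks higher in the cKO and gives the last AATAAA match in the peak, in capitals.
Gapdh, chr6:125161857-125161882, minus strand: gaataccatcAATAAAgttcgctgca
Ftl1, chr7:45457950-45457975, minus strand: accaagtaaaAATAAAgctttttgag
Ctss, chr3:95556369-95556394, plus strand: caaagtgcttAATAAAatctgtcatt
Rps28, chr17:33823053-33823078, minus strand: gcaactgttaAATAAAgcatttatat
These matches began 19 bases before the transcript end in Gapdh, 21 bases in Ftl1, 22 bases in Ctss and 33 bases in Rps28. The peaks of Saa3, Fth1, Gpnmb, Rbm3, Tmsb10 and Apoe held no AATAAA. Each set shows 1 motif in 1 direction only. Counted over the whole peak, AATAAA was also in falling peaks, with 2 matches each in Clec4e and Tnfrsf1b. It had 1 match each in Ctsb, Cd14, Mpeg1, Acod1 and Sdc1, and none in Rbpj, Btg1 and Vsir. Among the rising peaks, Ctss held 3 GGACT matches and the others held none. A match is a description of letters and marks neither a methylated base nor a used cleavage site.

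Macrophage markers were abundant in the input RNA. Of 9 macrophage markers 8 had an input value, and these summed to 3332 FPKM in the cKO and 4896 FPKM in the WT. All 9 carried a 3′ UTR peak in each genotype. Lyz2, whose promoter drives the Cre, had 1980 FPKM in the cKO and 3393 FPKM in the WT and weighed most in these sums. Whether the Cre itself has a part in the Lyz2 difference was not tested. Itgam, with 188 FPKM in the cKO and 179 FPKM in the WT, was higher in the cKO. So was Fcgr1, with 15.8 FPKM in the cKO and 11.1 FPKM in the WT, while the other macrophage markers with a value were lower. Fibroblast and mesenchymal markers summed to 200.9 FPKM in the cKO and 112.7 FPKM in the WT over 8 of 10 genes. Epithelial markers summed to 11.0 FPKM in the cKO and 7.29 FPKM in the WT over 2 of 10 genes. Neutrophil markers summed to 22.0 FPKM in the cKO and 21.6 FPKM in the WT over 2 of 8. Input values were held only for genes with a listed differential peak, so a marker without a value cannot be read as absent. None of the markers with a value was listed at 0, which this selection made likely beforehand. The part of these other cell types in the differences below was not tested. In bulk RNA, fewer cells of a type and less RNA per cell cannot be told apart. Mettl3 had no input value here. The cKO list held 2 peaks in its 3′ UTR, at log2 values of 1.45 and 0.86, and the WT list held 1, at 1.37, which do not check the deletion.

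The region name held against the annotation. Of the 20802 transcript names 20671 matched GENCODE M21, and 21469 cKO and 20439 WT 3′ UTR peaks could be placed on the transcript named in their row. All but 2 of the placed cKO peaks and all but 6 of the placed WT peaks held bases of its 3′ UTR. The centre lay in the coding sequence in 12.05% of cKO and 12.43% of WT peaks. A span counts any intron that the peak crosses, and its median was 475 bp in the cKO and 500 bp in the WT. Exonic length had a median of 350 bases in each genotype. Spans over 5000 bp made up 11.5% of cKO and 12.9% of WT peaks.

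The peaks clustered at the 3′ edge of the gene model. The distance from the 3′ edge of a peak to the annotated gene end had a median of 625 bp in the cKO and 591 bp in the WT, and 28.7% of cKO and 29.2% of WT peaks ended exactly at the gene end. Peaks that passed it made up 0.668% in the cKO and 0.707% in the WT. A further 7.80% of cKO and 7.64% of WT peaks lay over 10000 bp short of it, where the gene has other transcript ends. To the nearest annotated transcript end of the gene, the median was 174 bp in the cKO and 168 bp in the WT. Along the named transcript, the median distance of the peak centre from the stop codon was 608 bases in the cKO and 569 bases in the WT. To the transcript end it was 506 bases in the cKO and 525 bases in the WT.

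**Figure D1:**
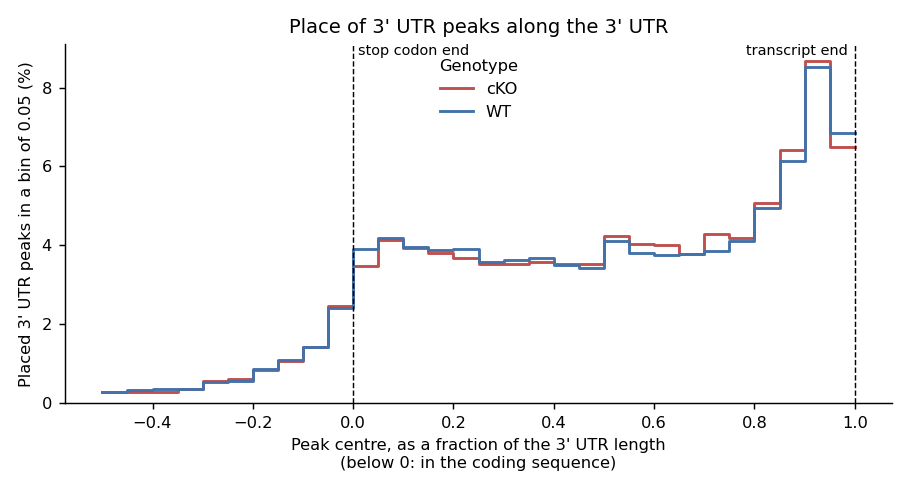
Place of 3′ UTR peak centres along the 3′ UTR of the named transcript. The x axis is the fraction of the 3′ UTR length, 0 at the end of the stop codon and 1 at the transcript end, and the y axis the percentage of placed peaks per bin in the cKO (red) and the WT (blue). Both genotypes rise gradually across the stop codon, before which peaks named exonic are left out by the choice of UTR3 rows. They stay nearly level along the 3′ UTR and crowd towards the transcript end. There, 48.5% of cKO and 49.3% of WT peaks reach within 50 bases of it or run past it, and the latter are cut at it. The 3′ edge lay within 50 bp of any annotated transcript end of the gene for 40.0% of cKO and 40.7% of WT peaks.

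Placed peaks were divided by the part of the transcript they reached. Those that began upstream of the end of the stop codon are called stop codon peaks. Those that reached within 50 bases of the end of the named transcript, or ran past it, are called transcript end peaks. Those doing both are called whole 3′ UTR peaks. The remainder are called interior peaks. In the cKO there were 3180 stop codon, 2864 whole, 7884 interior and 7541 transcript end peaks. The WT had 3269 stop codon, 2912 whole, 7095 interior and 7163 transcript end peaks. The class depends on which transcript the authors named for a peak. For example, the differential peak of Apoe held only 3 exonic bases of its named transcript.

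Enrichment differed between these classes. Over all 3′ UTR peaks the median log2 IP over input was 1.42 in the cKO (1.41 to 1.43) and 1.30 in the WT (1.28 to 1.31), above that of exonic peaks, at 0.92 in the cKO and 0.90 in the WT. Peaks of 5′ UTRs had 1.28 in the cKO, below the 3′ UTR peaks, and 1.32 in the WT, slightly above them. Exonic peaks of noncoding RNA stood higher, at 1.67 in the cKO and 1.68 in the WT. Stop codon peaks had medians of 1.67 in the cKO and 1.73 in the WT, and whole 3′ UTR peaks had 1.82 in the cKO and 1.80 in the WT. Interior peaks were the weakest, at 1.03 in the cKO and 0.96 in the WT. Transcript end peaks had a median of 1.52 in the cKO and 1.31 in the WT, which was the widest gap between genotypes among the 4 classes. Stop codon peaks were also long, with a median exonic length of 850 bases in the cKO and 900 bases in the WT, against 275 bases in the cKO and 259 bases in the WT for transcript end peaks.

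**Figure D2:**
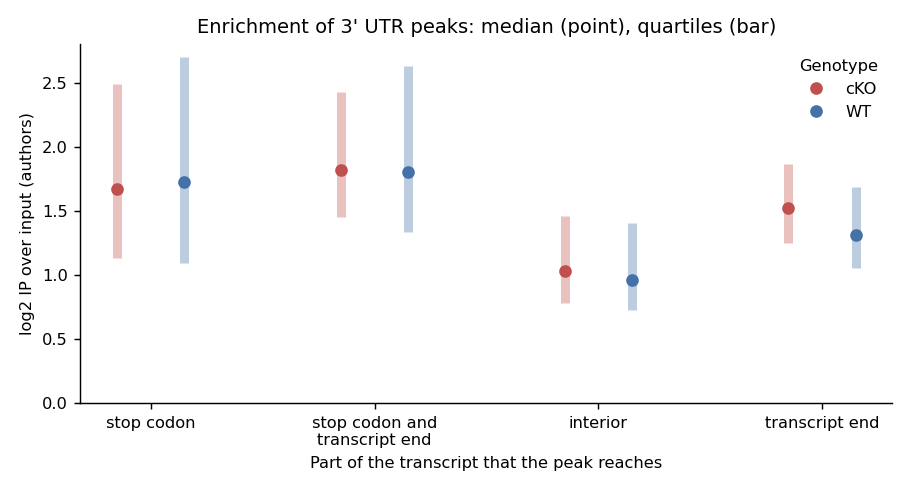
Log2 IP over input of 3′ UTR peaks by the part of the transcript they reach, in the cKO (red, left of each pair) and the WT (blue). Points are medians and bars run between the quartiles over peaks of 1 IP and 1 input library per genotype; transcript end peaks sit at 1.52 in the cKO and 1.31 in the WT, while stop codon peaks sit at 1.67 in the cKO and 1.73 in the WT.

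Sequence content followed position. The letters GGACT were searched on the transcript strand within 100 exonic bases on either side of the peak centre. Peaks whose window ran past the transcript were not searched, which left 19758 cKO and 18499 WT 3′ UTR peaks, and shares are of these. GGACT was present in 20.6% of cKO and 21.2% of WT 3′ UTR peaks. In 3′ UTR windows of the same length that lay clear of every peak of that genotype, the share was 15.8% for the cKO and 15.5% for the WT. Peaks with at least 4-fold enrichment held GGACT in 25.7% in the cKO and 27.3% in the WT. GGAC, which includes every GGACT, was in 50.4% of cKO and 51.6% of WT peaks, and in 41.9% of the windows clear of cKO peaks and 41.4% of those clear of WT peaks. AATAAA was in 17.53% of cKO and 17.97% of WT peaks. Clear windows, which can lie anywhere in the 3′ UTR, held it in 9.46% for the cKO and 9.72% for the WT. It was most frequent in transcript end peaks, at 23.8% in the cKO and 27.1% in the WT, and least frequent in stop codon peaks, at 11.3% in the cKO and 9.94% in the WT. All stop codon peaks were searched, but only 5914 of 7541 cKO and 5352 of 7163 WT transcript end peaks. Those centred within 100 bases of the transcript end were left out. GGACT was in 27.0% of cKO and 25.9% of WT whole 3′ UTR peaks, in 23.5% of cKO and 23.9% of WT stop codon peaks, in 18.8% of cKO and 19.5% of WT transcript end peaks and in 18.5% of cKO and 19.3% of WT interior peaks. Median GC content moved with class too, at 48.3% in cKO and 48.4% in WT stop codon peaks and at 42.7% in cKO and 42.5% in WT transcript end peaks. ATTTA, the core of AU-rich decay elements, was in 22.6% of cKO and 22.1% of WT peaks, and in clear windows in 25.7% for the cKO and 26.2% for the WT. TGTANATA, the element bound by Pumilio proteins, was in 4.02% of cKO and 4.04% of WT peaks, and in clear windows in 3.42% for the cKO and 3.47% for the WT. Only the transcript strand was searched.

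Length and place went with strength. When the peaks of each genotype were ranked by enrichment and cut into quintiles, 50.4% of the top quintile in the cKO and 58.1% in the WT reached the stop codon, against 11.97% of the bottom quintile in the cKO and 11.43% in the WT. Of the top quintile, 54.2% in the cKO and 50.9% in the WT reached the transcript end, against 14.2% of the bottom quintile in the cKO and 19.3% in the WT. Peaks of the top quintile had a median exonic length of 719 bases in the cKO and 1000 bases in the WT, against 200 bases for the bottom quintile in each. Among one-to-one peaks of genes with a mean input of at least 5 FPKM, mean enrichment over both genotypes was highest in Tnfsf9, which encodes the co-stimulatory ligand 4-1BBL, with log2 values of 4.67 in the cKO and 5.11 in the WT. It was followed by Sertad3 at 4.63 in the cKO and 4.92 in the WT. Jun, an AP-1 transcription factor subunit, had 4.68 in the cKO and 4.76 in the WT. Tnfaip8l2, a negative regulator of innate immunity, had 4.44 in the cKO and 4.97 in the WT. Each of these 4 was a whole 3′ UTR peak and was lower in the cKO. An interior peak of Sypl came next, with 4.96 in the cKO and 4.15 in the WT.

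Many genes held several 3′ UTR peaks, counted over all transcripts named for a gene. A 3′ UTR peak was listed for 11437 genes in the cKO and for 11321 in the WT, of which 10910 had one in both. At least 2 peaks were listed for 47.0% of these genes in the cKO (46.1 to 47.9) and for 45.7% in the WT (44.7 to 46.6). The mean was 1.88 peaks per gene in the cKO and 1.81 in the WT, and the maximum 16 in the cKO and 13 in the WT. Genes with a 3′ UTR under 500 bases had 1.06 peaks on average in each genotype, while those of 4000 bases or more had 3.81 in the cKO and 3.52 in the WT. Per kilobase of 3′ UTR the order turned round. The shortest class had 3.96 peaks in the cKO and 3.93 in the WT, and the longest 0.656 in the cKO and 0.607 in the WT. Only genes with at least 1 placed 3′ UTR peak entered, so short 3′ UTRs have a high density by construction. Peaks of all named transcripts of a gene were divided by the longest 3′ UTR among them.

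The next ranking covers genes with a mean input of at least 5 FPKM, a value held only for genes with a differential peak. Among them Ktn1 and Asph had the most 3′ UTR peaks, each with 12 in the cKO and 9 in the WT. Smg1, a kinase of nonsense-mediated decay, had 9 in the cKO and 10 in the WT. Nfat5, an osmotic stress transcription factor, had 7 in the cKO and 11 in the WT, and Qk, an RNA-binding protein, had 10 in the cKO and 7 in the WT. Peaks of each of these genes were named on at least 2 transcripts. The range within a gene differed between them. In Smg1 the log2 values ran between 0.54 and 3.29 in the cKO, with a median of 0.86, and between 0.51 and 3.66 in the WT, with a median of 0.69. In Nfat5 the values lay between 0.66 and 1.29 in the cKO and between 0.66 and 1.62 in the WT.

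Most 3′ UTR peaks had a partner in the other genotype. A peak on the same strand overlapped by at least 1 bp for 79.8% of cKO and 82.0% of WT 3′ UTR peaks, against 71.3% of cKO and 73.2% of WT peaks of all annotations. Whole 3′ UTR peaks were shared most often, at 96.8% in the cKO and 98.1% in the WT. Interior peaks were shared least, at 59.9% in the cKO and 60.7% in the WT. Peaks with a partner were the stronger ones, with a median log2 of 1.497 against 1.038 for those without in the cKO, and of 1.355 against 0.938 in the WT.

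The central comparison was the enrichment of 3′ UTR peaks without and with myeloid Mettl3. Of the peaks that overlapped 1 partner only and were 3′ UTR peaks in both lists, 12391 could be compared. Their median difference, cKO minus WT, was 0.07 (0.06 to 0.08) on the log2 scale, and 42.2% were lower in the cKO, against 45.2% of the 19387 such peaks of all annotations. Peaks at least 2-fold lower in the cKO made up 1.68% of them, against 2.55% over all annotations, and peaks at least 2-fold higher made up 3.00%, against 3.03%. Most differences were under 2-fold, and their sign followed the place of the peak. Of 1657 stop codon peaks 65.4% were lower in the cKO, and their median difference was -0.13. Of 1942 whole 3′ UTR peaks 51.7% were lower, and the median was -0.01. Of 2495 interior peaks 40.6% were lower, and the median was 0.06. Of 5014 transcript end peaks 30.5% were lower, and the median was 0.18.

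The same order held along the 3′ UTR without any class. Peaks centred before the end of the stop codon were lower in the cKO in 59.9% of cases (57.4 to 62.3, n = 1530). In the first quintile of the 3′ UTR length the share was 54.4%, in the second 47.4%, in the third 42.6% and in the fourth 35.3%. In the last quintile it was 29.0% (27.5 to 30.5, n = 3706). The median difference ran in step, at -0.10 before the stop codon end, -0.03 in the first quintile, 0.02, 0.06 and 0.11 in those that follow, and 0.20 in the last.

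**Figure D3:**
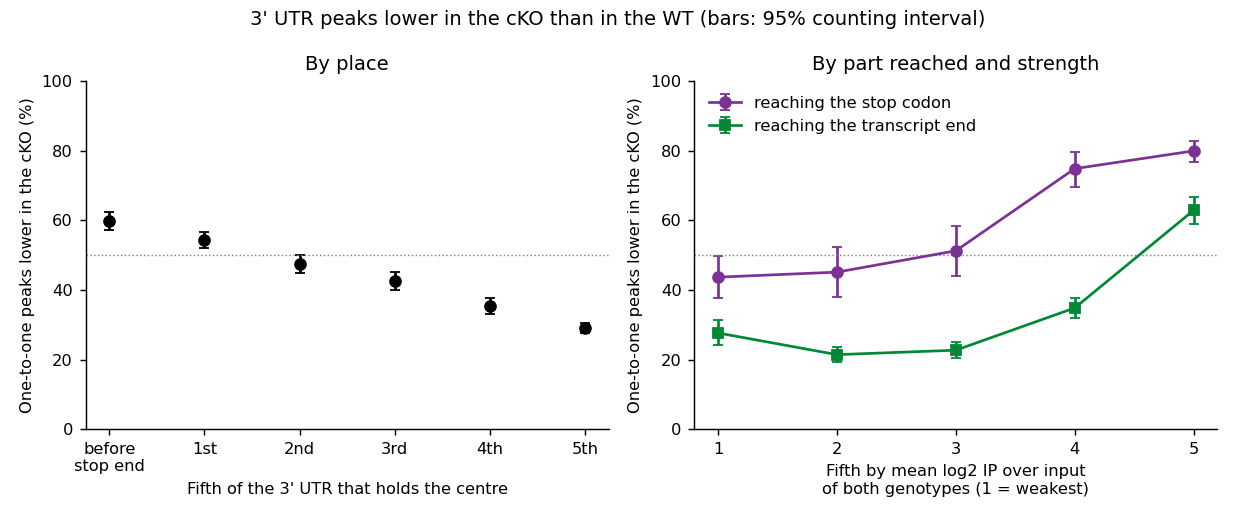
Percentage of one-to-one 3′ UTR peaks with a lower log2 IP over input in the cKO than in the WT, by the quintile of the 3′ UTR length that holds the centre (left) and, for stop codon peaks (circles) and transcript end peaks (squares), by quintile of mean strength (right). Bars are exact 95% counting intervals; the share goes down along the 3′ UTR, with 59.9% at its start and 29.0% in its last quintile, and stop codon peaks lie above transcript end peaks in each quintile of strength.

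Strength, length, expression and sequence moved with position, so the comparison was repeated within levels of each. In the weakest quintile of peaks by mean strength, 43.7% of stop codon and 27.7% of transcript end peaks were lower in the cKO. In the strongest quintile the shares were 79.9% and 62.9%. Stop codon peaks were the more often lower of the 2 classes in each of the 5 quintiles. The share also differed by length. Of stop codon peaks up to 400 exonic bases long, 36.7% of 177 were lower in the cKO, against 68.8% of 1480 longer ones. Of transcript end peaks the shares were 26.8% of 3814 short and 42.0% of 1200 long ones. Whole 3′ UTR peaks divided most sharply by length, at 23.1% of 655 short and 66.3% of 1287 long ones.

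Input values were held only for genes with a listed differential peak, so the genes below were selected for a genotype difference in some peak. At a mean input of at least 1 FPKM they held 983 of the 1657 stop codon and 3007 of the 5014 transcript end peaks. For genes with a mean input of 1 to 5 FPKM, 77.4% of stop codon and 36.5% of transcript end peaks were lower in the cKO. For genes at 50 FPKM or more, the shares were 58.5% of 65 and 8.17% of 257. Stop codon peaks with GGACT in the window were lower in 68.4% and those without in 64.1%. Transcript end peaks with it in the window of either genotype were lower in 37.0%, and all other transcript end peaks in 29.0%. The latter include peaks whose window ran past the transcript end and was not searched. Which of these properties the difference follows was not tested.

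Pairs of peaks within 1 transcript share gene and expression level. In 733 transcripts a stop codon peak and a transcript end peak could each be compared one to one. The stop codon peak had a median difference, cKO minus WT, of -0.15, and the transcript end peak one of 0.23. The transcript end peak shifted further towards the cKO than the stop codon peak in 574 of the 733 transcripts (78.3%, 75.1 to 81.2), with a median gap of 0.39 (0.35 to 0.43). In 407 transcripts the stop codon peak was lower and the transcript end peak higher in the cKO, against 63 with the opposite pattern. Both peaks were lower in 118 and both higher in 145. Among the 315 transcripts whose 2 peaks had a mean log2 within 0.5 of each other, the transcript end peak was ahead in 73.7%.

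**Figure D4:**
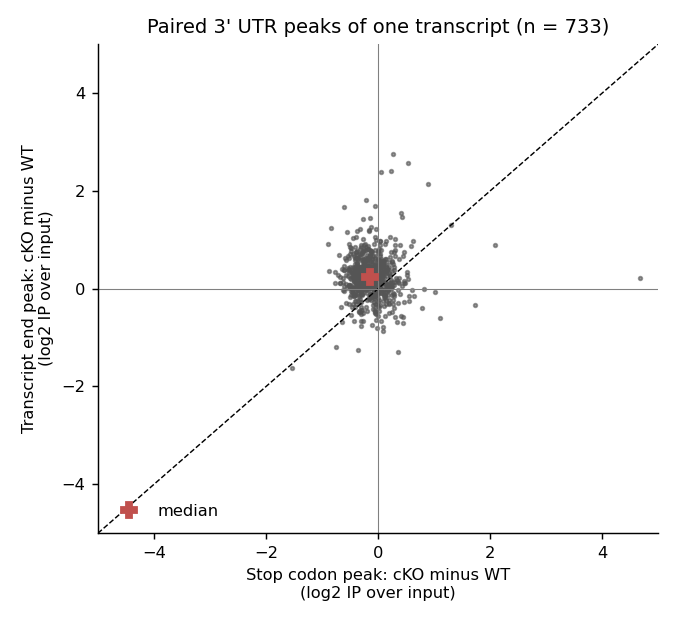
Difference in log2 IP over input, cKO minus WT, at the stop codon peak (x axis) and the transcript end peak (y axis) of the same transcript. Each grey point is 1 of 733 transcripts, the dashed line marks equal differences and the red cross the medians of -0.15 and 0.23; 574 points lie above the line.

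The authors' deposited table of differential peaks, which lists peaks with their p below 0.05, was read in the same way. It held 3441 3′ UTR peaks higher and 3243 lower in the cKO, so that 48.5% were lower, against 51.1% of the peaks of all annotations in that table. An adjusted p below 0.05 was reached by 53.3% of all listed peaks. At that level the authors' deposited table had 1890 3′ UTR peaks that rose and 2012 that fell, so that 51.6% of the called 3′ UTR peaks fell, against 54.3% over all annotations. The absolute difference was under 0.5 on the log2 scale in 43.0% of the 6684 peaks and at least 1 in 26.0%. IP lay below input in 1 genotype for 543 of these 1740 peaks of at least 2-fold, so large differences often rest on a value that is no enrichment.

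Position split this table too. Stop codon peaks of the authors' deposited table numbered 1303, of which 79.2% were lower in the cKO (76.9 to 81.4), and at an adjusted p below 0.05 the share was 84.1% of 870. Of 2427 transcript end peaks 28.2% were lower (26.4 to 30.0), and at an adjusted p below 0.05 28.5% of 1395. Whole 3′ UTR peaks stood at 59.3% and interior peaks at 45.4%. In 703 transcripts at least 2 differential 3′ UTR peaks were listed, and 366 of these transcripts held peaks of both directions. In 188 all listed peaks were higher in the cKO, and in 149 all were lower. The 5′-most peak was lower and the 3′-most higher in the cKO in 326 transcripts, against 29 with the reverse.

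Csf1, Ythdf1 and Ier5 show this within a gene. Csf1 encodes M-CSF. Its stop codon peak fell to a log2 of 3.16 in the cKO, against 3.69 in the WT (adjusted p 3.5e-06 in the authors' deposited table), while its transcript end peak, 475 bases long, had 1.66 in the cKO and 1.08 in the WT (adjusted p 0.072). Ythdf1 encodes an m6A reader. Its stop codon peak fell to 1.73 in the cKO, against 2.17 in the WT, and its transcript end peak rose to 1.80 in the cKO, against 1.01 in the WT (adjusted p 0.00035 and 0.012 in the authors' deposited table). Ier5 is an immediate early gene. Its stop codon peak fell to 3.40 in the cKO, against 3.63 in the WT, and its transcript end peak rose to 1.87 in the cKO, against 0.19 in the WT (adjusted p 0.00019 and 0.024 in the authors' deposited table). In the input, Csf1 had 6.68 FPKM in the cKO and 7.28 FPKM in the WT, Ythdf1 had 9.54 FPKM in the cKO and 9.13 FPKM in the WT, and Ier5 had 19.2 FPKM in the cKO and 18.7 FPKM in the WT.

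The 3′ UTR peaks with the smallest adjusted p in the authors' deposited table were taken among genes with a mean input of at least 5 FPKM. All 10 with the smallest adjusted p among those that fell were stop codon or whole 3′ UTR peaks. Clec4e, the macrophage receptor Mincle, had log2 values of 2.05 in the cKO and 2.66 in the WT. Rbpj, the transcription factor of Notch signalling, had 1.41 in the cKO and 2.08 in the WT. Vsir, the immune checkpoint VISTA, had 2.93 in the cKO and 3.44 in the WT, and Sdc1, a cell surface proteoglycan, had 2.38 in the cKO and 2.92 in the WT. Each of these peaks ran over more than 1000 exonic bases from the coding sequence into the 3′ UTR. Tnfrsf1b, a TNF receptor, had 3.25 in the cKO and 3.61 in the WT, and Acod1, which makes itaconate in activated macrophages, had 2.07 in the cKO and 2.51 in the WT. Cd14, the co-receptor for lipopolysaccharide, had 1.65 in the cKO and 2.11 in the WT, and Btg1, an antiproliferative factor, had 1.52 in the cKO and 1.94 in the WT. Shifts were smallest for Ctsb, a lysosomal protease, with 1.44 in the cKO and 1.68 in the WT, and for Mpeg1, a pore-forming protein, with 2.04 in the cKO and 2.26 in the WT. GGACT matches printed above lie in 6 of these peaks. Counted over the whole peak, Mpeg1 held 7 matches, Cd14 held 4, Acod1 held 2 and Btg1 held 1, which are not printed.

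Among those that rose, 4 of 10 were transcript end peaks, 3 whole, 2 interior and 1 a stop codon peak. Gapdh, a glycolytic enzyme, had 3.76 in the cKO and 1.72 in the WT, over 251 exonic bases that reach the AATAAA shown above. Rbm3, a cold-induced RNA-binding protein, had 3.78 in the cKO and -0.64 in the WT, where IP lay below input. Rps28, a ribosomal protein, had 1.57 in the cKO and 0.93 in the WT. Gpnmb, a transmembrane glycoprotein of phagocytes, had 1.26 in the cKO and 0.83 in the WT, and Tmsb10, an actin-binding peptide, had 0.96 in the cKO and 0.54 in the WT. Both ferritin genes differed by less, Ftl1 with 1.01 in the cKO and 0.72 in the WT and Fth1 with 0.98 in the cKO and 0.77 in the WT. So did Saa3, an acute phase protein, with 1.38 in the cKO and 1.09 in the WT, and Apoe, a lipid carrier, with 1.31 in the cKO and 1.05 in the WT. Ctss, a lysosomal protease, had the smallest difference, with 0.62 in the cKO and 0.46 in the WT.

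**Figure D5:**
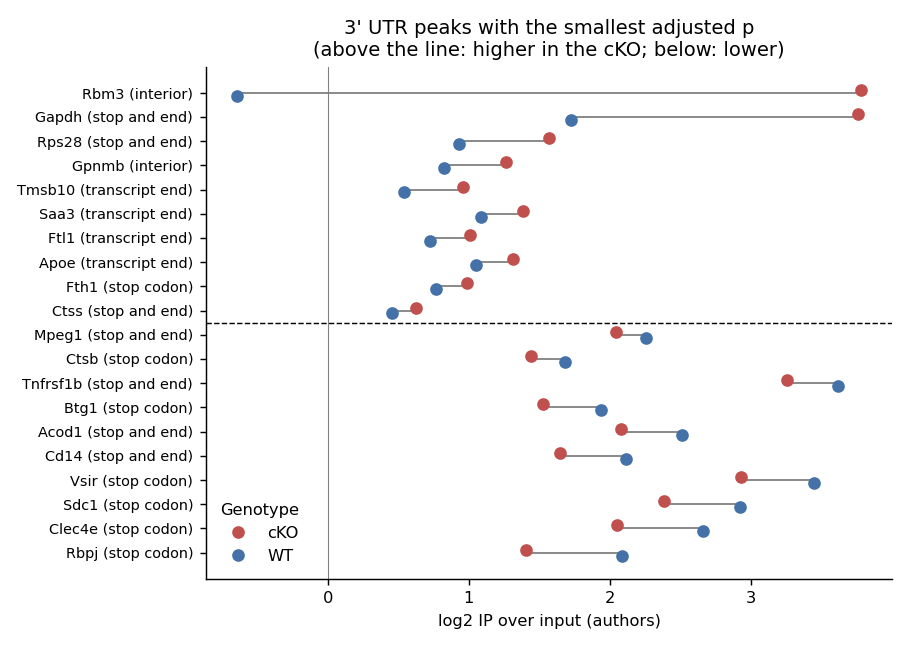
Log2 IP over input in the cKO (red) and the WT (blue) at the 10 rising and 10 falling 3′ UTR peaks with the smallest adjusted p in the authors' deposited table, with the part of the transcript each reaches. Only genes with a mean input of at least 5 FPKM entered. Each value comes from 1 IP and 1 input library; all peaks below the dashed line reach the stop codon, and Rbm3 is the only one with IP below input, at -0.64 in the WT.

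The largest differences in genes with a mean input of at least 5 FPKM came mainly from short peaks, taken among those whose adjusted p in the authors' deposited table was below 0.05. The largest rise was a transcript end peak of 175 bases in Ube2k, a ubiquitin-conjugating enzyme, with 1.12 in the cKO and -4.75 in the WT (adjusted p 0.043 in the authors' deposited table). Of the 10 largest rises under these limits, 9 had IP below input in the WT. The exception was Pcf11, a cleavage and polyadenylation factor, with 3.95 in the cKO and 0.54 in the WT (adjusted p 0.037 in the authors' deposited table). Among the 10 largest falls under the same limits, Metap2, a methionine aminopeptidase, had -0.06 in the cKO and 4.46 in the WT. Usp9x, a deubiquitinase, took 3 of the 10 places, all in 1 3′ UTR of 3844 bases, with values of -2.51, -1.44 and -0.37 in the cKO against 1.90, 2.33 and 2.59 in the WT. Rtl8b had a whole 3′ UTR peak of 1175 bases that fell to 1.47 in the cKO, against 4.20 in the WT.

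Gene groups were counted in the authors' deposited table, where all genes together had 3441 3′ UTR peaks higher and 3243 lower in the cKO. The groups were not matched for peak position, length or expression. Immediate early transcription factors had 4 higher and 13 lower, of which 3 rose and 12 fell at an adjusted p below 0.05, and 71.4% of their 21 one-to-one peaks were lower in the cKO, against 42.2% over all genes. Jund, an AP-1 subunit, had 2.85 in the cKO and 3.41 in the WT, and Maff, a small Maf factor, had 1.74 in the cKO and 2.20 in the WT. SOCS and JAK-STAT genes had 6 higher and 19 lower, of which 3 rose and 18 fell. Their one-to-one peaks were lower in 48.4% of 31. In this group Jak1, a receptor-bound kinase, had 2.33 in the cKO and 2.81 in the WT. Socs3, an inhibitor of cytokine signalling, had 2.16 in the cKO and 2.44 in the WT, and Cish, another member of that family, had 2.28 in the cKO and 2.59 in the WT. These 3 were whole 3′ UTR peaks of over 1000 exonic bases. Jak3 was among those that rose, with a transcript end peak at 1.99 in the cKO and 0.48 in the WT. Socs2 had a whole 3′ UTR peak at 1.84 in the cKO and 2.34 in the WT and an interior peak at 1.42 in the cKO and -3.65 in the WT (adjusted p 0.0033 and 0.11 in the authors' deposited table). Spred2, a negative regulator of Ras signalling outside the list, had a stop codon peak at 1.56 in the cKO and 2.21 in the WT.

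Ribosomal protein genes showed the reverse. Of 80 differential 3′ UTR peaks in 70 of these genes, 74 were higher and 6 lower in the cKO in the authors' deposited table, and 68 rose and 3 fell at an adjusted p below 0.05. Of 76 one-to-one peaks 10.5% were lower in the cKO, and the median difference was 0.29. Input values were held only for genes with a differential peak. Among these, at a mean input of 50 FPKM or more, 8.17% of 257 transcript end and 29.0% of 186 whole 3′ UTR peaks were lower. Of interior peaks it was 24.2% of 66, and of stop codon peaks 58.5% of 65. Whether ribosomal protein genes differ from other genes alike in peak position and expression was not tested. Their largest fall was in Rps12, whose transcript end peak fell to -0.31 in the cKO, against 2.55 in the WT. Ribosomal protein genes have near-identical processed copies, so the reads behind these peaks are uncertain. Lysosomal genes had 16 higher and 6 lower, of which 15 rose and 6 fell. Atp6v0d2, a subunit of the proton pump, had a transcript end peak at 1.65 in the cKO and 1.13 in the WT. Its stop codon peak rose too, with 0.90 in the cKO and 0.74 in the WT. Npc2, a cholesterol carrier, had a transcript end peak at 1.36 in the cKO and 0.94 in the WT. Here too the stop codon peak rose, with 0.88 in the cKO and 0.72 in the WT. Cytokines and chemokines had 14 higher and 4 lower, of which 10 rose and 3 fell, among them the chemokine Cxcl1 with a transcript end peak at 1.53 in the cKO and 0.98 in the WT. Its input, the denominator of these values, was 19.98 FPKM in the cKO and 45.8 FPKM in the WT, and the part of that difference in the peak was not tested. Antigen presentation genes had 8 higher and 3 lower, of which 7 rose and 2 fell.

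Macrophage identity genes had 8 higher and 7 lower in the cKO, of which 7 rose and 7 fell, and interferon-stimulated genes had 6 higher and 5 lower, of which 5 rose and 4 fell. Chromatin enzymes had 6 higher and 6 lower, of which 2 rose and 6 fell, and microRNA effectors had 6 higher and 6 lower, of which 3 rose and 2 fell. Regulators of AU-rich elements and mRNA decay had 11 higher and 11 lower, of which 3 rose and 6 fell. Factors of 3′ end processing had 10 higher and 8 lower, of which 7 rose and 3 fell. Within that last group Cpsf6, a subunit of cleavage factor I, held 5 listed peaks in 1 3′ UTR of 4798 bases. Its transcript end peak rose to 1.66 in the cKO, against 0.46 in the WT, and an interior peak fell to 0.38 in the cKO, against 1.21 in the WT. The m6A writers had 2 higher and 4 lower, of which 0 rose and 3 fell. Wtap, the scaffold of the writer complex, had a transcript end peak at 2.07 in the cKO and 2.79 in the WT. Readers and erasers had 4 higher and 3 lower, of which 3 rose and 3 fell. The markers of fibroblasts had 6 higher and 0 lower, of which 5 rose, and their summed input was 200.9 FPKM in the cKO and 112.7 FPKM in the WT.

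Input levels of the same genes differed little in the median. Genes whose differential 3′ UTR peaks were all lower in the cKO had a median difference in log2(FPKM + 1), cKO minus WT, of 0.00 (n = 2121). Genes whose peaks were all higher had one of -0.04 (-0.06 to -0.03, n = 2262), against -0.02 over all 6079 genes with a value. This scale understates the change of low genes. Across 7151 one-to-one peaks of 4897 genes the peak difference and the input difference had a Pearson correlation of -0.10, and input is also the denominator of the peak value. Genes with higher peaks had a median input of 10.1 FPKM in the cKO and 10.5 FPKM in the WT, and those with lower peaks 5.58 FPKM in each.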

How the data were processed

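RNA from 4 libraries (1 IP and 1 input per genotype) was described by the authors in 4 deposited tables. Reads were handled on mm10 with tools that include, per the submitters' processing notes, edgeR, StringTie, ChIPseeker, HOMER, HISAT2 and fastp. Which tool called peaks, its settings and the scaling of IP to input are not given here by any source used. Per the file headers, the deposited peak values are log2 of IP over input, each with a p-value, raw and adjusted, from the authors. The deposited gene table gives FPKM of the input libraries, held only for genes with a differential peak. Depth is unknown. The authors' cKO and WT columns followed the peak lists of the same genotype at 1444 and 1619 identical positions (Pearson's r 1.00 each).

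From these tables, peaks were placed on GENCODE M21 exons and overlapped with bedtools 2.31.1 (Python 3.11.15, pandas 2.3.3, scipy 1.17.1), on the same strand. Positions are 1-based. Placement and pairing were tested on simulated data. No test was run, since there is 1 library per group. Input differences used log2(FPKM + 1) at a mean FPKM of at least 1. Named genes were the 10 largest rises and falls at an adjusted p below 0.05 and the 10 smallest adjusted p-values per direction, the 5 strongest one-to-one peaks and the 5 genes with the most peaks, all at a mean FPKM of at least 5, up to 4 genes per list, and Mettl3, Jak1, Socs1, Socs2, Socs3, Cish and Spred2. No gene of the mitochondrial genome, and no symbol starting in Gm plus a digit or closing in Rik, was named. Csf1, Ythdf1 and Ier5 were picked among these after their values were seen. Members and lists were chosen with earlier results of these data known.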

Additional observations from a re-analysis of the deposited data

How the results depend on the processing

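The order of stop codon over transcript end peaks in the share lower in the cKO was the same under every alternative tried. For stop codon peaks of the authors' deposited table, 79.2% lower became 84.1% at an adjusted p below 0.05, 69.0% with at least 2-fold added, 75.8% with the transcript end as the exact last base and 70.6% at spans up to 5000 bp. For transcript end peaks, 28.2% became 20.6% with an adjusted p below 0.05 and 2-fold, 23.9% at spans up to 5000 bp and 22.4% with any annotated transcript end of the gene. These settings were chosen after seeing the data. The numbers of rises and falls were 1890 and 2012 at an adjusted p below 0.05, and 548 and 303 with 2-fold added, so that the balance turned towards rises. With overlap of at least 50% of both peaks, partners were found for 55.0% of cKO and 58.2% of WT peaks, the median difference was 0.056 with 44.1% lower, and stop codon peaks stood at -0.15 with 68.6% lower. With adjusted p below 0.001 in both lists partners were found for 83.4% of cKO and 87.4% of WT peaks, the median difference was 0.054 with 43.9% lower, and transcript end peaks stood at 0.16. Overlap of exonic bases, added after seeing the data, gave partners for 74.2% of cKO and 76.8% of WT peaks.

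At an adjusted p below 0.001 the share of 3′ UTR peaks was 63.1% in the cKO and 63.4% in the WT, and the median log2 was 1.54 in the cKO and 1.43 in the WT. Genes with at least 2 peaks then made up 36.8% in the cKO and 34.3% in the WT, and with peaks under 100 bp apart merged 43.1% in the cKO and 41.6% in the WT. At spans up to 5000 bp the median log2 was 1.39 in the cKO and 1.25 in the WT, and the distance to the gene end 533 bp in the cKO and 500 bp in the WT. To the nearest transcript end it was 174 bp in the cKO and 168 bp in the WT. Median length was 350 exonic bases in each genotype. Among peaks with a full window, GGACT was within 50 bases of the centre in 11.0% of cKO and 11.2% of WT peaks. GGAC was within 100 bases in 50.4% of cKO and 51.6% of WT peaks. The median input difference of genes with lower peaks was -0.00019 at an adjusted p below 0.05, against 0.0044 without that limit, both near 0. The cause of these shifts was not tested. No paired analysis was possible because each genotype has 1 IP and 1 input library and no test was run. Read depth was not given, so weak peaks cannot be weighed by it.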
